A study of Mus musculus with 2 samples.

Results

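The endothelium is the cell layer that lines blood vessels, lymphatic vessels and the chambers of the heart, where it is called the endocardium. A set of 39 genes that mark endothelial cells in general, or their arterial, venous, capillary, lymphatic and endocardial kinds, was followed in mouse heart tissue. The genes were taken by symbol from a given list, with no measured value in the rule, and all 39 were found among the 55536 annotated genes, of which 22015 are nuclear and protein-coding. Total RNA was sequenced from hearts of female B6CASTF1/J mice, hybrids of C57BL/6J and CAST/EiJ, aged 14 days, and the labels give 1 group of 2 libraries, with no treatment or mutation. Each library was prepared from 300 ng of RNA and received ERCC spike-in RNAs. The labels name the same donor for both libraries while the tissue descriptions carry different animal numbers, and a shared description could be read as a pool of 3 females. The SD given for 2 libraries is therefore the spread between libraries, which may be technical. With a single group there is no contrast to test, so no p-value is given, and the questions answered are how high each gene stood, how the genes stood relative to each other, and how far the 2 libraries differed.

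Endothelial cells are joined by VE-cadherin and claudin-5, and their survival and quiescence depend on receptor kinases of the TIE family and on receptors for BMP ligands. Notch signalling directs arterial identity, with ephrin-B2 on arterial and EphB4 on venous endothelium, while PROX1 directs the lymphatic fate and NFATC1 marks endocardium that forms valves. In the heart a dense capillary bed runs beside the muscle fibres, so that much of the endothelial RNA of heart tissue is that of capillaries.

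The libraries held 36404376 and 34569708 expected counts in replicates 1 and 2, of which 97843 and 88720 fell in the 39 genes. The 2 libraries differed beyond counting noise, with a chi-square of their counts of 15.5 per degree of freedom. They also stood apart in airway epithelial markers, whose summed level was 185 TPM in replicate 1 and 11.3 TPM in replicate 2. TPM is a level corrected for transcript length and scaled to the same sum in each library. Of the 8 airway markers, led by Scgb1a1 and Scgb3a2, 7 averaged 50 counts or more, called enough counts below, and all 7 were at least 1.5-fold higher in replicate 1, as were 2.31% of all 12876 annotated genes with enough counts. A list of 8 lung endothelial genes summed to 61.2 TPM in replicate 1 and 47.0 TPM in replicate 2. It was led by Car4, which heart capillaries also express, and Tmem100, while Foxf1, Fendrr and Rtkn2 (named after their values were seen) were at 0.33 TPM or below in both libraries. Of 9 lung alveolar markers only Hopx, which heart muscle also expresses, averaged 1 TPM or more, at 208 TPM in replicate 1 and 239 TPM in replicate 2, and Sftpa1 followed at 1.43 and 0.03 TPM. Any part of lung tissue in the values of the endothelial genes was not tested.

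All 39 genes reached 1 TPM in both libraries, against 22.8% of all annotated genes and 52.2% of nuclear protein-coding genes. The next threshold, 5 TPM, was reached in both by 38, the exception being Mmrn1. No share of all genes is given at 5 TPM, so that count has no background. The median over the 39 genes of the mean level was 19.7 ± 1.44 TPM (SD of the library medians, n = 2), against 9.77 ± 0.0849 TPM over the 11720 nuclear protein-coding genes with a mean of at least 1 TPM, and 32 of the 39 lay above that second median. The genes summed to 1407 TPM in replicate 1 and 1268 TPM in replicate 2, which was 0.327% and 0.295% of the TPM of nuclear protein-coding genes. By comparison, the 8 cardiomyocyte markers had a median of 3271 TPM (Myh6, the main adult-type heart myosin, 10387 ± 129, and Actc1, cardiac actin, 6932 ± 391), the 8 fibroblast markers 59.4 TPM (the fibrillar collagens Col3a1, 488 ± 15.9, and Col1a1, 232 ± 1.44) and the 9 mural cell markers 24.5 TPM (Acta2, smooth muscle actin, 169 ± 8.28, and Rgs5, a pericyte regulator of G proteins, 156 ± 9.96). The 8 mesothelial markers had a median of 3.95 TPM (Msln 14.7 ± 0.318 and Upk3b 11.2 ± 0.219). In heart tissue as a whole, fewer cells of a type and less RNA per cell cannot be told apart.

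The levels spanned a wide range: 8 genes averaged 50 TPM or more, 24 lay between 10 and 50 TPM, and 7 were below 10 TPM. From the top, the order was Aqp1 at 160 ± 37.1 TPM, Ly6c1 at 114 ± 28.0 TPM, Egfl7 at 105 ± 7.28 TPM and Cdh5 at 97.3 ± 5.61 TPM (SD, n = 2 each). At the lower end stood Apln at 6.13 ± 0.870 TPM and, well below it, Mmrn1 at 1.86 ± 0.148 TPM. Of 38 pairs of genes that are neighbours in this order, 26 had library ranges that overlapped, so that much of the order did not exceed the spread between the libraries. This holds near the top as well, where Ly6c1 overlapped Egfl7 and Egfl7 overlapped Cdh5. The lowest value of Aqp1 exceeded the highest of Ly6c1 by only a few hundredths of a TPM, whereas the gap below Apln was wide.

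**Figure D1:**
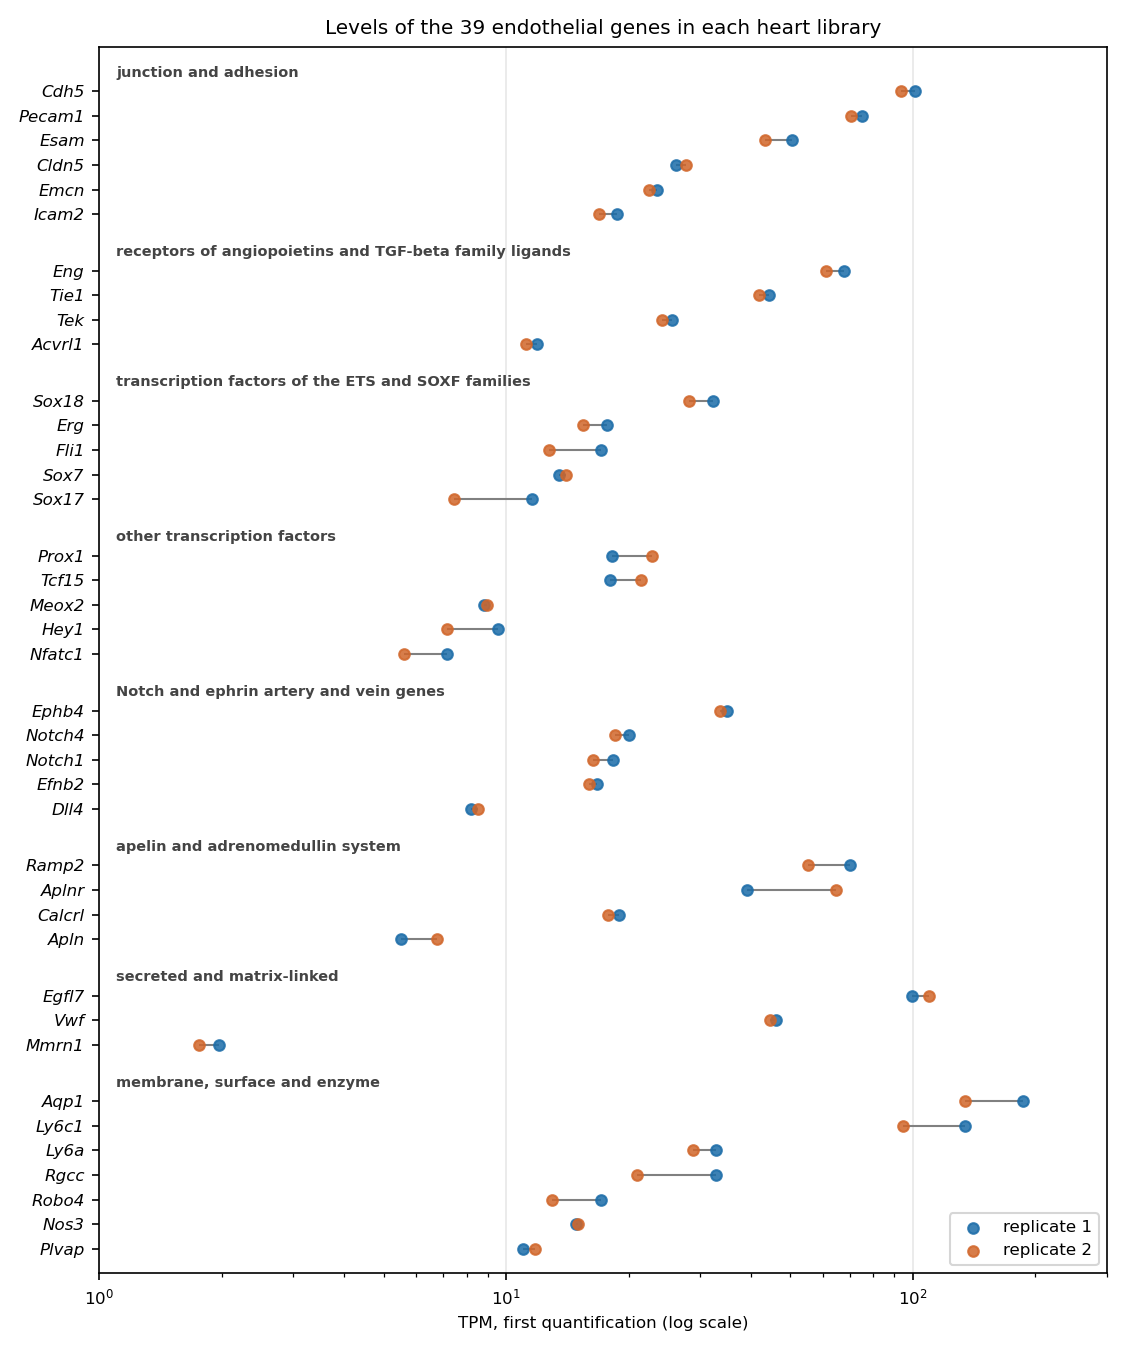
Level of each of the 39 genes in TPM (log axis) in replicate 1 (blue) and replicate 2 (orange), grouped by role, with a line joining the 2 libraries. All points lie above 1 TPM, the lowest gene is Mmrn1, and the longest lines belong to genes such as Aplnr, Rgcc and Sox17.

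Junction and adhesion genes were among the higher members and close between libraries. Cdh5, which encodes VE-cadherin of the adherens junction, was at 101 TPM in replicate 1 and 93.4 TPM in replicate 2. Pecam1, the adhesion receptor CD31, was at 75.1 and 70.4 TPM in the same order, and Esam, an immunoglobulin-like adhesion molecule of tight junctions, at 50.5 and 43.3 TPM. The library ranges of these 3 genes did not overlap. Cldn5, claudin-5 of the tight junction, was lower at 26.1 and 27.6 TPM. Emcn, the sialomucin endomucin of capillary and venous endothelium, followed at 23.6 and 22.4 TPM, and Icam2, a ligand of leukocyte integrins, at 18.7 and 17.0 TPM. Of these 6 genes, only Cldn5 was lower in replicate 1. Among 19 other endothelial membrane and junction genes, 18 averaged at least 1 TPM, with a median of 25.4 ± 2.31 TPM (SD of library medians, n = 2). Cd34, a sialomucin of vessels and progenitors, led them at 79.5 and 83.7 TPM, followed by Tjp1, the tight junction scaffold ZO-1 that other cells also use, at 55.8 and 61.6 TPM. The list's only gene at least 1.5-fold apart among the 18 with enough counts was S1pr1, a receptor for sphingosine 1-phosphate, at 43.8 and 26.4 TPM in replicates 1 and 2, named here after its values were seen.

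Of the receptors for angiopoietins and TGF-beta family ligands, Eng, the coreceptor endoglin, stood highest at 67.8 TPM in replicate 1 and 61.1 TPM in replicate 2. Acvrl1, the receptor kinase ALK1 with which endoglin acts, was at 11.9 and 11.2 TPM. Endoglin thus exceeded its partner in both libraries, with a mean log2 ratio of levels of 2.48 ± 0.04 (SD, n = 2). Tie1, a receptor kinase without a firmly established ligand of its own, was at 44.3 and 41.8 TPM. Its relative Tek, the angiopoietin receptor TIE2, was at 25.6 and 24.1 TPM. The log2 ratio of Tek to Tie1 was -0.79 in both libraries. All 4 receptors were slightly higher in replicate 1, by 1.04 to 1.09-fold in counts scaled to the library total (CPM). In the list of 12 partners of ALK1, 11 averaged at least 1 TPM, the median was 17.5 ± 1.59 TPM and none of the 11 with enough counts was 1.5-fold apart. Its highest genes were Id3 at 35.7 and 33.7 TPM and Id1 at 34.4 and 25.6 TPM, both encoding inhibitors of helix-loop-helix factors that are targets of BMP signalling. Of the 2 high-affinity ligands of ALK1, named after their values were seen, Bmp10 was at 20.5 and 16.7 TPM while Gdf2, which encodes BMP9 and is known as a liver product, was at 0.07 and 0.08 TPM.

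Transcription factors of the ETS and SOXF families were present at moderate levels. Erg, an ETS factor that maintains endothelial identity, was at 17.7 TPM in replicate 1 and 15.5 TPM in replicate 2, and Fli1, its close relative that blood cells also express, at 17.1 and 12.8 TPM. The 2 could not be ranked: their mean log2 ratio, Fli1 over Erg, was -0.16 ± 0.17 (SD, n = 2). Among the SOXF factors, which act together in arterial and lymphatic development, Sox18 stood highest at 32.2 and 28.2 TPM. Sox7 was at 13.5 and 14.0 TPM. Sox17, the member most tied to arteries, was at 11.6 and 7.44 TPM, so that Sox18 exceeded Sox17 by a log2 ratio of 1.70 ± 0.32 and Sox7 by 1.13 ± 0.18. In a list of 16 other endothelial transcription factors, 15 averaged at least 1 TPM, with a median of 11.0 ± 0.866 TPM. The ETS genes Ets2, at 41.8 and 51.3 TPM, and Ets1, at 37.2 and 45.7 TPM, led the list and stood above both Erg and Fli1 in each library, and neither is restricted to endothelium. Etv2, the ETS factor that starts the endothelial lineage in the embryo, had no count in either library, which allows up to 3 counts in each (named after its values were seen). Klf4, a factor induced by blood flow, was the only one of the 15 with enough counts that was 1.5-fold apart, at 24.7 TPM in replicate 1 and 14.0 TPM in replicate 2 (named after its values were seen).

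The other transcription factors mark particular kinds of endothelium. Prox1, the lymphatic regulator, which heart muscle cells also express, was at 18.2 TPM in replicate 1 and 22.8 TPM in replicate 2. Its level stood far above that of the lymphatic endothelial gene Mmrn1, with a mean log2 ratio of 3.45 ± 0.34 (SD, n = 2). Among 10 lymphatic endothelial genes outside the 39, the median was 4.54 ± 0.0389 TPM. Itga9, an integrin subunit needed for lymphatic valves, was highest at 31.1 and 35.3 TPM, and Ccl21a, a chemokine of lymphatic endothelium, followed at 11.9 and 13.8 TPM. Of the 9 with enough counts, Lyve1, a hyaluronan receptor of lymphatic endothelium and of some macrophages, was the only one 1.5-fold apart, at 9.56 TPM in replicate 1 and 5.55 TPM in replicate 2 (named after its values were seen). Prox1 was thus above 9 of these 10 genes and above Mmrn1 in both libraries, beside cardiomyocyte markers at a median of 3271 TPM, and the part of muscle cells in its level was not tested. Tcf15 and Meox2, which work as a pair in heart capillary endothelium to promote fatty acid uptake, were at 18.0 and 21.4 TPM and at 8.84 and 8.98 TPM. Their log2 ratio, Meox2 over Tcf15, was -1.14 ± 0.16. Hey1, a repressor downstream of Notch, was at 9.53 TPM in replicate 1 and 7.17 TPM in replicate 2. Nfatc1, the endocardial factor, was at 7.16 and 5.62 TPM, the lowest of the transcription factors in both libraries. The list of 11 further endocardial genes was also low, with a median of 2.83 ± 0.580 TPM, 9 genes at 1 TPM or more and none 1.5-fold apart among the 9 with enough counts. Cgnl1, a junction protein, led it at 14.7 and 19.6 TPM, and Npr3, a clearance receptor for natriuretic peptides, followed at 15.7 and 14.6 TPM.

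Genes of the Notch and ephrin systems gave almost the same values in both libraries. The venous receptor Ephb4 was highest at 35.0 TPM in replicate 1 and 33.6 TPM in replicate 2, and its arterial ligand Efnb2 stood at 16.7 and 16.0 TPM. The log2 ratio Efnb2 over Ephb4 was -1.07 in both libraries, so that the venous partner exceeded the arterial one by 2.10-fold in level. By the second quantification this ratio was -0.68 in replicate 1 and -0.91 in replicate 2. The receptors Notch4, largely restricted to endothelium, and Notch1, used by many cell types, were close together at 20.1 and 18.5 TPM and at 18.3 and 16.3 TPM. Their mean log2 ratio, Notch1 over Notch4, was -0.15 ± 0.03 (SD, n = 2). In the second quantification it was 0.19 in replicate 1 and -0.14 in replicate 2, so their order was not settled. Dll4, the Notch ligand of arterial and sprouting endothelium, was lower at 8.18 and 8.54 TPM. Notch1 exceeded it by a log2 ratio of 1.05 ± 0.16.

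The lists around these genes showed more of the same system. Of 15 other Notch pathway genes 14 averaged at least 1 TPM, with a median of 6.28 ± 0.318 TPM. Notch3, the receptor of mural cells, was highest at 18.5 and 19.2 TPM, next to Notch4 and Notch1 in level, and Hes1, a Notch target in many tissues, followed at 12.1 and 15.4 TPM. Of the 7 other ephrin genes and receptors, Efna1 was at 14.2 and 18.8 TPM and Efnb1 at 13.0 and 12.1 TPM, and none exceeded Efnb2 in both libraries. The list of 14 further arterial genes had a median of 9.03 ± 0.173 TPM with 13 at 1 TPM or more. Nrp1, a coreceptor for VEGF and semaphorins that is not restricted to arteries, led it at 55.0 and 64.2 TPM, and Fbln5, an elastic fibre protein, followed at 16.0 and 14.2 TPM. The list of 11 further venous genes had a median of 3.96 ± 0.177 TPM, with 6 at 1 TPM or more. Nrp2, a neuropilin of veins and lymphatics, was at 17.6 and 18.9 TPM. Lrg1, a secreted glycoprotein of venules that other cells also make, was at 19.2 TPM in replicate 1 and 10.4 TPM in replicate 2. Lrg1 was the only venous gene of 8 with enough counts that was 1.5-fold apart, and Sema3g, at 9.28 and 5.93 TPM, the only arterial one of 13. In the Notch list it was Lfng, at 7.57 and 4.81 TPM, the only one of 14. The last 2 were named after their values were seen.

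The apelin and adrenomedullin receptors formed a group with unequal partners. Aplnr, the apelin receptor, was at 39.1 TPM in replicate 1 and 64.7 TPM in replicate 2, while its ligand gene Apln was at 5.52 and 6.75 TPM. The receptor exceeded the ligand by a mean log2 ratio of 3.04 ± 0.31 (SD, n = 2). Ramp2, which carries the calcitonin receptor-like receptor to the membrane and makes it respond to adrenomedullin, was at 70.0 and 55.2 TPM. Calcrl, which encodes that receptor, was at 18.9 and 17.8 TPM, giving a log2 ratio of Ramp2 to Calcrl of 1.76 ± 0.18. On raw counts, which are not corrected for length, Ramp2 was below Calcrl, with log2 ratios of -0.11 and -0.44 in replicates 1 and 2. In the list of 11 further ligands and partners of these and the TIE receptors, 6 averaged at least 1 TPM. Ptprb, the phosphatase VE-PTP that acts on TIE2, was highest at 42.9 and 35.5 TPM, and Angpt1, the activating ligand of TIE2, followed at 11.4 and 10.7 TPM. Adm2 and Calca, named after their values were seen, had no count in either library. The 10 genes of sprouting tip cells, of which Apln itself is one, averaged at least 1 TPM in 8 cases, with library medians of 3.08 TPM in each library. Nid2, a basement membrane protein, led that list at 37.5 and 40.4 TPM, and Unc5b, a netrin receptor, followed at 10.1 and 13.2 TPM.

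The secreted and matrix-linked genes differed widely in level. Egfl7, a matrix protein secreted by endothelial cells, was at 99.4 TPM in replicate 1 and 110 TPM in replicate 2. Vwf, the von Willebrand factor of endothelium and platelets, was at 46.0 and 44.7 TPM. Mmrn1, multimerin of platelets and of lymphatic endothelium, was at 1.97 and 1.76 TPM, from 230 and 207 counts. Beside Vwf and Mmrn1, the 9 platelet and megakaryocyte markers summed to 18.8 TPM in replicate 1 and 19.8 TPM in replicate 2, and 3 of the 9 averaged at least 1 TPM. Most of that sum was Pf4, platelet factor 4, at 15.2 and 14.7 TPM, with Ppbp next at 1.81 and 2.51 TPM, and Gp1ba and Gp9, receptor subunits for von Willebrand factor on platelets, were at or below 0.57 TPM (named after their values were seen).

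Egfl7 (mm10, chr2:26580014-26593120, plus strand) also hosts the precursor of the endothelial microRNA miR-126a, at chr2:26591357-26591429. The precursor, of 73 bases, was listed with 0 counts and an effective length of 0, so its level was not measured here. The mature RNA is shown because it is made from the RNA of one of the highest genes of the set, with its seed, bases 2 to 8, in capitals (RefSeq, GRCm38.p6, chr2:26591402-26591423, plus strand).
mmu-miR-126a-3p: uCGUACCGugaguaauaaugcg

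Among the membrane, surface and enzyme genes were the 2 with the highest mean TPM in the first quantification. In replicate 2 Egfl7 exceeded the second of them, Ly6c1, as did Cdh5 by the mean of the second quantification. Aqp1, the water channel of capillary endothelium and of red cells, was at 187 TPM in replicate 1 and 134 TPM in replicate 2, 1.37-fold apart in CPM (exact counting interval at 95%, 1.33 to 1.40). The red cell markers, with Hbb-bs at 12978 and 10050 TPM and Hba-a1 at 10905 and 8286 TPM, differed in the same direction, by 1.27 and 1.28-fold in CPM. Their summed level was 35953 TPM in replicate 1 and 27773 TPM in replicate 2, and the part of red cells in the difference of Aqp1 was not tested. Ly6c1, a surface protein of capillary endothelium and of monocytes, was at 134 TPM in replicate 1 and 94.5 TPM in replicate 2, and its neighbour Ly6a, known as SCA-1, at 32.9 and 28.8 TPM. Ly6c1 exceeded Ly6a by a log2 ratio of 1.87 ± 0.22 (SD, n = 2). Macrophage markers also summed higher in replicate 1, at 118 TPM against 92.2 TPM in replicate 2, with Lyz2 at 38.9 and 25.9 TPM and C1qb at 17.4 and 12.7 TPM. By counting intervals 5 of the 9 macrophage markers were higher in replicate 1, against 12% of all genes with enough counts. In replicate 2 the interval put 1 higher, against 24.1% of all genes. It was Cx3cr1, at 1.43 and 3.14 TPM (named after its values were seen). The part of macrophages in Ly6c1 and Ly6a was not tested. Rgcc, a regulator of the cell cycle enriched in heart capillaries, was at 32.8 TPM in replicate 1 and 20.97 TPM in replicate 2. Robo4, an endothelial receptor that stabilises vessels, was at 17.1 and 12.9 TPM. Nos3, the endothelial nitric oxide synthase, was at 14.9 and 15.1 TPM, and Plvap, the protein of the diaphragms of fenestrated endothelium, at 11.0 and 11.8 TPM. These last 2 did not differ between the libraries beyond counting error.

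The capillary list of 12 genes, 4 of which (Aplnr, Rgcc, Tcf15 and Meox2) belong to the 39, had the highest level of the endothelial lists, with library medians of 36.8 TPM in replicate 1 and 39.9 TPM in replicate 2. Cd36 and Fabp4, which take up and carry fatty acids and are also made by muscle and fat cells, led it at 734 and 613 TPM and at 488 and 411 TPM. Among these 12 genes, Timp4, Rgcc and Gpihbp1 were at least 1.5-fold higher in replicate 1 and Aplnr at least 1.5-fold higher in replicate 2, against 2.31% and 1.78% of all genes with enough counts, and of these Timp4 and Gpihbp1 were named after their values were seen. Brown fat markers, which include Fabp4, summed to 1497 TPM in replicate 1 and 1491 TPM in replicate 2. Most of that sum was Cox8b, at 875 and 926 TPM, and Fabp4, while the library medians of the list were 32.55 and 42.36 TPM. Which cells the Cox8b RNA came from, and the part of brown fat in Fabp4, were not tested. Of 9 partners of nitric oxide synthase 8 averaged at least 1 TPM, with a median of 9.08 ± 0.389 TPM. Cav1, the caveolar protein that binds the enzyme, was at 187 and 175 TPM and the chaperone Hsp90aa1 at 41.3 and 42.9 TPM. The other synthases, named after their values were seen, stood below Nos3: Nos2 was at 2.77 and 2.90 TPM and Nos1 at 0.13 and 0.09 TPM.

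Between the 2 libraries, 3 of the 39 genes were at least 1.5-fold apart in CPM, where 4.09% of the 12876 annotated genes with enough counts were. Aplnr (ENSMUSG00000044338.9, chr2:85136225-85139923) had 3095 counts in replicate 1 and 4998 in replicate 2, a ratio in CPM of 0.588 with an exact 95% counting interval of 0.562 to 0.615. Rgcc (ENSMUSG00000022018.7, chr14:79288756-79301645) had 756 and 466 counts, a ratio of 1.54 (1.37 to 1.73). Sox17 (ENSMUSG00000025902.13, chr1:4490931-4497354) had 505 and 316 counts, a ratio of 1.52 (1.32 to 1.75). The apelin receptor was therefore the only one of the set that stood 1.5-fold higher in replicate 2, and the intervals of Rgcc and Sox17 reach below 1.5. By direction the background was 2.31% higher in replicate 1 and 1.78% higher in replicate 2. The genes next below the threshold were Ly6c1 at 1.42, Aqp1 at 1.37 and Hey1 at 1.34. No gene of the set was 2-fold apart.

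Most of the set was closer than that. Within 1.2-fold lay 28 genes, against 79.4% of all genes with enough counts, and the SD of the log2 ratio was 0.264 over the 39 genes and 0.296 over all of them. The smallest difference was that of Efnb2, with a ratio of 1.00 (0.940 to 1.07). The counting interval excluded equality for 23 genes, against 36.1% of all genes. Of these, 17 were higher in replicate 1, where the background was 12%, and 6 higher in replicate 2, where it was 24.1%. The 6 were Aplnr, Prox1, Apln, Tcf15, Egfl7 and Vwf. The direction of Vwf, and that of Calcrl, was the opposite in TPM. The median log2 ratio of replicate 1 over replicate 2 was 0.08 over the 39 genes and -0.05 over all genes with enough counts. It was 0.13 for the 39 genes when TMM or median-of-ratios factors, which bring the median of all genes to about 0, replaced the totals. These intervals cover counting error only and compare 2 libraries, not conditions. An interval narrows as counts rise, so the shares of genes whose interval excluded equality depend on count level. Mmrn1, the lowest of the set, had 230 and 207 counts, while all genes were taken from a mean of 50. The shares were not matched for count level.

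**Figure D2:**
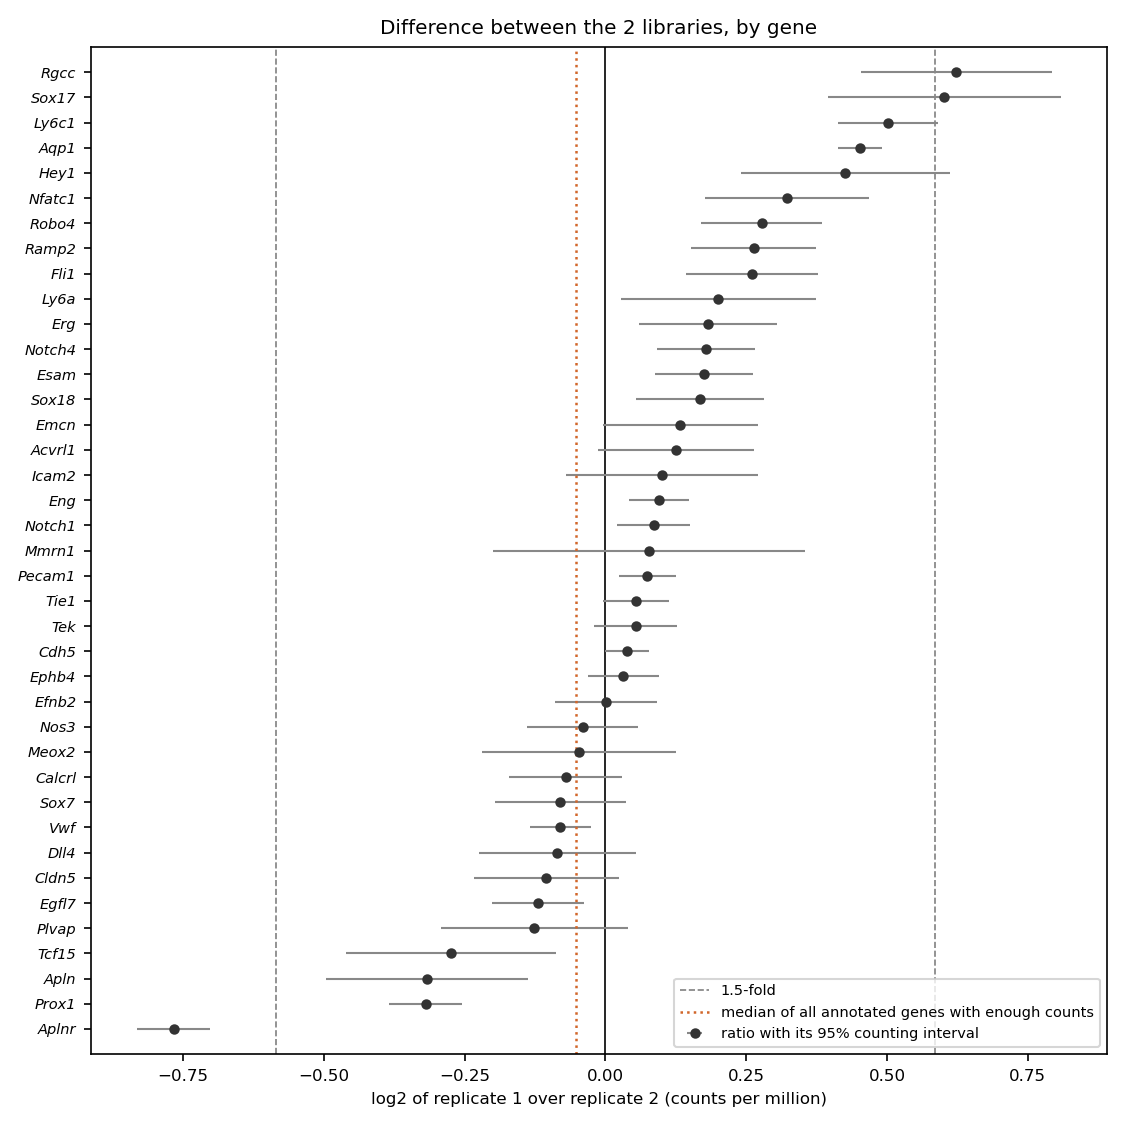
Log2 ratio of replicate 1 over replicate 2 in CPM for each of the 39 genes, with its 95% exact counting interval (grey bars), the 1.5-fold bounds (dashed) and the median of all annotated genes with enough counts (dotted, -0.05). Rgcc and Sox17 lie past the bound on the side of replicate 1 and Aplnr on the side of replicate 2.

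The ratios of related genes within a library do not depend on the scaling of the library. In 9 of 14 pairs the first gene was the higher in both libraries, and in the other 5 the lower. In the first quantification, the pairs that moved least between libraries were Efnb2 with Ephb4, Tek with Tie1, Cdh5 with Pecam1 (0.42 ± 0.02, SD, n = 2), Notch1 with Notch4 and Eng with Acvrl1. Those with the largest SD were Prox1 with Mmrn1, Sox18 with Sox17 and Aplnr with Apln. Those 3 pairs hold Prox1, Sox17 and Aplnr, which were among the genes that differed between the libraries. The second quantification gave the same order in both libraries for 12 pairs. The exceptions were Notch1 with Notch4, at 0.19 and -0.14 in replicates 1 and 2, and Fli1 with Erg, at 0.18 and -0.20.

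**Figure D3:**
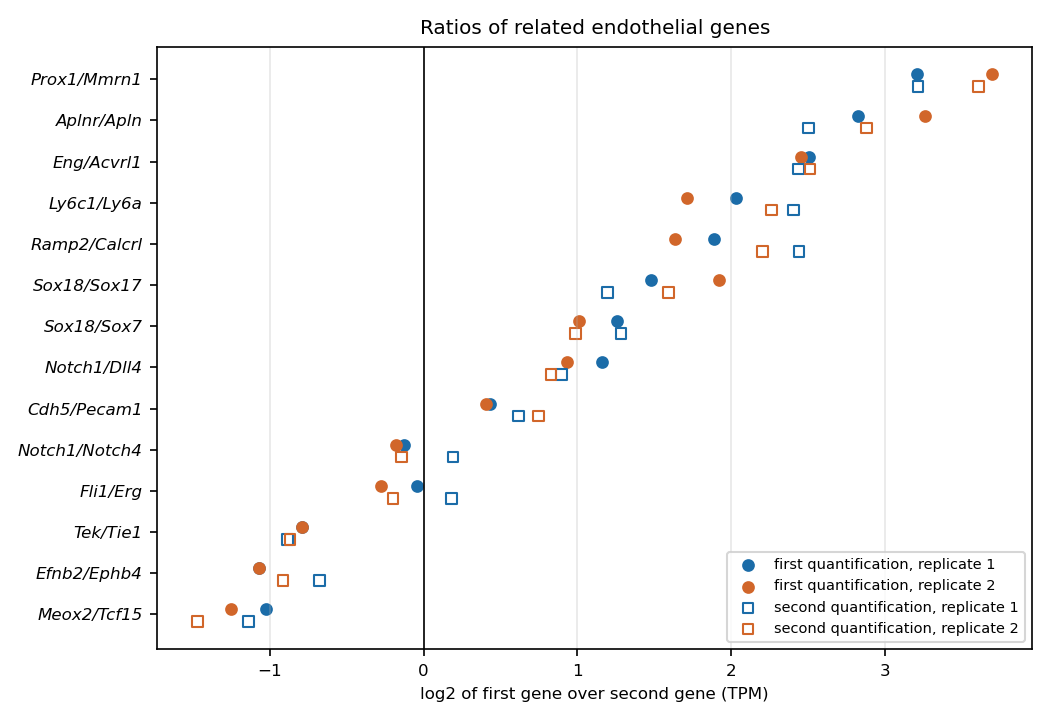
Log2 ratio of the TPM of the first over the second gene of each of 14 pairs, for each replicate in the first (filled circles) and second (open squares) quantification. Pairs right of 0 have the first gene higher, and only Notch1/Notch4 and Fli1/Erg have points on both sides.

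The deposit holds 2 quantifications of the same libraries, and the values so far are those of the first, with the column names of RSEM, unless stated. In the second, with the column names of kallisto, 34 of the 39 genes were higher and 5 lower, with a median ratio of second over first of 1.14. The extremes were Cdh5 at 155 TPM in both libraries, against 101 and 93.4 TPM in the first, and Vwf at 29.96 and 30.6 TPM, against 46.0 and 44.7 TPM. Only Aplnr remained 1.5-fold apart between the libraries there, while Rgcc and Sox17 lay just below, at log2 ratios of 0.56 and 0.54. The first quantification also gives a posterior mean TPM, a separate estimate of each level, and an interval for that estimate. For 37 genes the TPM lay within it in both libraries. That of Notch1 lay below its intervals of 18.4 to 23.2 TPM in replicate 1 and 16.6 to 21.1 TPM in replicate 2, and that of Aqp1 above its intervals of 179 to 185 TPM and 128 to 134 TPM. The posterior means of both genes lay within, at 20.69 and 18.75 TPM for Notch1 and 182 and 131 TPM for Aqp1.

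The 39 genes have 190 annotated transcripts, and 30 of them have more than 1. The leading transcript, the one with the largest mean share of the gene's TPM, was protein-coding in all 30. It was the same in both libraries for 28 of them, the exceptions being Nfatc1 and Sox17. It held at least 50% of the gene in 21 genes and at least 80% in 11. In the first quantification Dll4 and Nos3 were measured as a single transcript, with 100% in the leading one in both libraries, and Cdh5-201 held 94.8% and 98.7% of Cdh5. The same transcripts of Dll4, Nos3 and Cdh5 averaged 96.0%, 86.4% and 69.3% in the second. At the other end stood Egfl7, with 19 transcripts, of which the leading Egfl7-202 held 22.2% and 22.5%. In 7 genes the 2 quantifications named different leading transcripts: Acvrl1, Egfl7, Erg, Ly6a, Ly6c1, Pecam1 and Robo4. For Erg, for example, Erg-207 led in the first with 41.7% ± 1.59, while Erg-206, at 0% there, led in the second with 41.9% on average.

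Transcripts of types other than protein-coding (retained intron, processed transcript, nonsense-mediated decay) took at least 20% of the TPM of 6 genes in the first quantification. The share was 55.2% ± 3.76 for Vwf, 52.7% ± 1.38 for Egfl7, 41.3% ± 2.40 for Notch4, 38.3% ± 2.44 for Ramp2, 33.4% ± 4.07 for Calcrl and 29.8% ± 1.74 for Robo4 (SD, n = 2 each). In the second quantification the same shares averaged 20.6% for Vwf, 37.7% for Egfl7, 24.4% for Notch4, 50.7% for Ramp2, 18.2% for Calcrl and 44.6% for Robo4. The gene levels of these 6 thus hold much that is not annotated as coding, by an amount that depends on the quantification. In Vwf the processed transcript Vwf-209, of 456 bases, held 29.2% and 24.8% of the TPM in replicates 1 and 2 in the first quantification and 0.31% and 0% in the second. In Robo4 the leading transcript of the second quantification, with 44.6%, is itself of the nonsense-mediated decay type.

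**Figure D4:**
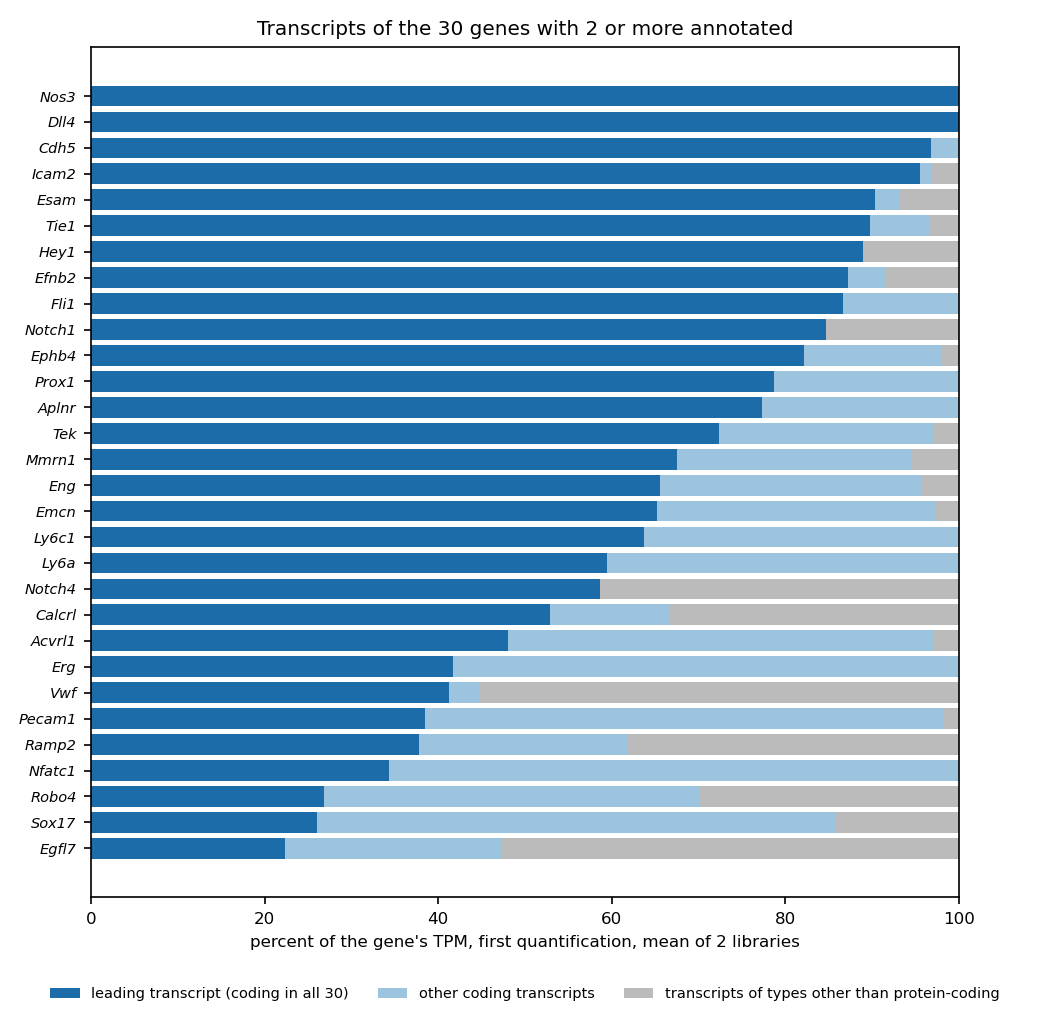
Share of each gene's TPM (percent, first quantification, mean of 2 libraries) in its leading transcript (dark blue), in other protein-coding transcripts (light blue) and in transcripts of other types (grey), for the 30 genes with more than 1 annotated transcript. Dll4 and Nos3 are filled by 1 transcript, while Egfl7, Vwf and Notch4 have the widest grey parts.

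Reads of some genes may be shared with others. The expected counts were whole numbers, within 0.005, for 36 genes and fractional for Ramp2, Ly6a and Ly6c1. Of all windows of 100 bases in the transcripts of Ramp2, 28.4% also occur in Vps25, a gene of endosomal sorting on the same strand that overlaps it and was at 33.9 TPM in replicate 1 and 37.8 TPM in replicate 2. For Ly6c1, 10.1% of such windows occur in Ly6a or in Ly6c2, a near copy at 4.48 and 2.99 TPM, and for Ly6a 1.45% occur in Ly6c1. The levels of Ramp2, Ly6c1 and Ly6a are uncertain to that extent, as is the ratio of Ramp2 to Calcrl. Among the other genes named, Ccl21a, Hsp90aa1, Lyz2 and Col3a1 also had fractional counts, and the globin genes have near-identical copies, so that their levels depend on how reads were divided. Egfl7 shared 1.64% of its windows with Gm20532, which had no counts, and Vwf 0.125% with other genes, and the other 34 genes shared none. The sources used here do not say whether counting used the strand, and the ends of Eng, Ephb4, Egfl7, Plvap and Nos3 overlap protein-coding genes on the opposite strand (Fpgs, Zan, Agpat2, Gtpbp3 and Atg9b).

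The 39 genes lie on 16 chromosomes, with 8 of them on chromosome 2. Some are close neighbours: Ly6a and Ly6c1 are 46.0 kb apart on chromosome 15, Notch1 and Egfl7 63.4 kb apart on chromosome 2 and Robo4 and Esam 113 kb apart on chromosome 9. Neighbours did not share a level, since Esam exceeded Robo4 and Egfl7 exceeded Notch1 in both libraries.

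For 21 of the 39 genes RefSeq gave start sites (GRCm38.p6), with 27 windows of 250 bases before the start. These windows were searched on both strands for the letters of motifs known for endothelial regulators. The motifs were chosen with earlier results of these data known, so their shares are no independent support. The ETS form CAGGAAG was found in 8 of the 27 windows, or 29.6%, against 10.8% of all 32851 such windows of mouse genes. The form CCGGAAG, common at widely used promoters, was found in none, against 6.91% of all windows. The 8 windows belonged to 7 genes: Egfl7, Erg, Emcn, Robo4, Calcrl, Notch4 and Apln. In Robo4 and Calcrl the letters lie in the last 75 and 145 bases of the window, past the first base of an annotated exon. The SOX forms ACAAAG and AACAAT were in 22.2% and 18.5% of the windows of the set and in 16.5% and 9.42% of all windows. The KLF form CCACCC was in 29.6% against 28.1%, the TATA form TATAAAA in 3.70% against 4.98%, the RBPJ form GTGGGAA in 3.70% (Tie1 alone) against 5.42%, and the FOX form GTAAACA in none against 3.17%. The median GC content was 58.4% in the set and 52.4% in all windows. Windows with at least 0.6 of the CG pairs expected from their bases made up 18.5% of the set and 34.0% of all. A match of letters is a description and no evidence that a factor binds.

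The windows of 3 genes are shown because they hold the ETS letters: Egfl7, the only gene of the set with them at 2 starts and one of its highest, Erg, an ETS gene itself, and Emcn. Capitals mark CAGGAAG or, where it lies on the other strand, CTTCCTG, and sequence is cut before the first base of any annotated exon. All are from RefSeq (GRCm38.p6), read 5′ to 3′ on the strand of the gene. They are chr2:26580833-26581055 (plus) and chr2:26583615-26583863 (plus) for Egfl7, chr16:95459349-95459598 (minus) for Erg and chr3:137340828-137341066 (plus) for Emcn. Upstream and downstream refer to these 2 windows of Egfl7. The window of another Egfl7 start, further downstream at chr2:26586386-26586629, holds no ETS letters and is not shown. The windows of other Erg starts, at chr16:95530366-95530615 and chr16:95586594-95586843 (minus), hold none either and are not shown.
Egfl7, upstream start: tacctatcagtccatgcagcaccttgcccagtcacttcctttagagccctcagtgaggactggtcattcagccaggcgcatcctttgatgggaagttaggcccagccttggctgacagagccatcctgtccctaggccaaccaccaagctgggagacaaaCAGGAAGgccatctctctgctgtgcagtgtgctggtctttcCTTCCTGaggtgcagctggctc
Egfl7, downstream start: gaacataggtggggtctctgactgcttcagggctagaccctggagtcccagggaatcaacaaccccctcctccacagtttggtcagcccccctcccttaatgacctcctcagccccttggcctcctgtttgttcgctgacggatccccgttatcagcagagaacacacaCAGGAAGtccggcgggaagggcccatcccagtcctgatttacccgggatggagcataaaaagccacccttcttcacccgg
Erg: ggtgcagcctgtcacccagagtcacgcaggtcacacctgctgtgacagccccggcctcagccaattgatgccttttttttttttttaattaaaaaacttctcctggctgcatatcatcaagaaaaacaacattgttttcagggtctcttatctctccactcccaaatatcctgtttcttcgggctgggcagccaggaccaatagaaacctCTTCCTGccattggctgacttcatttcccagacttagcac
Emcn: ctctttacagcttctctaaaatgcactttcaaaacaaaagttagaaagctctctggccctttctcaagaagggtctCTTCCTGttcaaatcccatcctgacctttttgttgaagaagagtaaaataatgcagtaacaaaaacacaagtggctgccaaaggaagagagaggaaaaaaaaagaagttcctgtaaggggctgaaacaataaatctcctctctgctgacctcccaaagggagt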

How the data were processed

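Total RNA of mouse heart was measured in 1 group of 2 libraries, grouped by the labels. Per the readme files, reads were processed against the assembly mm10 with the GENCODE annotation M21. The sources used here name no aligner or quantification program and do not say how CAST/EiJ alleles or strand were handled. In the first quantification, the authors deposited expected counts, not normalized, and TPM scaled to length and library over all rows, per the file headers. They also deposited the percent of each gene that its transcripts hold, and the bounds of an interval of the posterior mean TPM, a score of precision within 1 library. The second quantification, deposited with kallisto-style headers, holds estimated counts and TPM per transcript, which were summed per gene here.

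Gene names came from the second quantification by gene identifier, and each of the 39 symbols matched 1 gene. TPM was compared between genes, and counts scaled to the total of annotated genes (CPM) between libraries. Ratios of counts were given for genes that averaged 50 counts or more, with 95% exact Clopper-Pearson intervals. The intervals were tried on simulated data that held counting noise only. The 2 libraries differed beyond counting noise, so that trial says nothing about the spread between them. Genes were said to be apart at 1.5-fold. A count of 0 allows up to 3 counts. Intervals and limits cover counting error only. The depth was 36404376 and 34569708 expected counts. The text names all 39 genes and the 2 highest genes of each companion or marker list; others are said to be named after their values were seen. No measured value was in the rule for the 39 genes. Still, the genes, lists, pairs and motifs were chosen with earlier results of these data known, so none is independent support. Alternatives were the second quantification, TMM factors (edgeR 4.0.16, R 4.3.3), median-of-ratios factors, other totals and thresholds, and each library alone. Ahsp, of the red cell list, had no match. Promoter and microRNA sequences came from RefSeq tables, in which 21 of the 39 genes had an entry. Other steps used scipy 1.17.1, pandas 2.3.3, numpy 2.4.6 and, for plots, matplotlib 3.10.9, under Python 3.11.15.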

Additional observations from a re-analysis of the deposited data

How the results depend on the processing

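All 39 genes stayed at 1 TPM or more in both libraries in the second quantification and with posterior mean TPM. They also did with levels rescaled to nuclear protein-coding genes and in either library alone. At 5 TPM 38 did, and no share of all genes is given there. The median level of 19.7 TPM was 23.9 in the second quantification and 45.8 when rescaled to nuclear protein-coding genes, and 18.93 to 20.97 in either library alone. The 3 genes at least 1.5-fold apart remained under every scaling of the first quantification, fell to 1 (Aplnr) in the second, and 0 were 2-fold apart. The median log2 ratio of 0.08 was 0.13 with TMM factors, 0.13 with size factors and 0.10 with totals of nuclear protein-coding genes. Each scaling shifts every gene alike, here by 0.05, 0.05 and 0.02 in that order. The distance to the median of all genes therefore did not change. Genes whose interval excluded equality numbered 23 to 28 over the settings. The share of all genes, 36.1%, was taken with library totals only, so the counts under other settings have no background. The log2 ratio of Notch1 to Notch4 reversed to 0.0227 in the mean of the second quantification (0.19 and -0.14), and the cause was not tested. The first gene led in 9 of 14 pairs in either library alone. On counts without length correction it led in 10, but 5 pairs changed order: Notch1/Notch4 (0.83 and 0.92), Fli1/Erg (0.16 and 0.08) and Meox2/Tcf15 (0.33 and 0.11) turned positive, Ramp2/Calcrl turned negative, and Sox18/Sox7 gave 0.18 and -0.06. The leading transcript held at least 50% in 21 genes in either library alone and at least 80% in 11. In the second quantification the level moved by more than the spread between libraries for 30 of the 39 genes, and the log2 ratio for 8 of 14 pairs beside the reversed one. Rescaling to nuclear protein-coding genes raised all 39 levels and no ratio moved. No paired analysis was possible because the series has 1 group. Depth limits Mmrn1 most, with 230 and 207 counts and a ratio interval of 0.870 to 1.28.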
